A study of Homo sapiens and Mus musculus with 5 samples.

Results

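The SNPs of chromosome 1 formed 51 of the 984 fragments and 18 of the 347 SNPs in a STARR-seq library of variants linked to schizophrenia. They were taken as every fragment whose name in the deposited tables starts with chromosome 1, without regard to any measured value. STARR-seq is a reporter assay in which a cloned fragment lies inside the transcript that it drives, so the fragment's own sequence in RNA counts its activity. The RNA came from 4 cell lines transfected with the plasmid library. HEK-293T derives from human embryonic kidney, SH-SY5Y and Neuro-2a from neuroblastomas of human and mouse, and PC-12 from a rat pheochromocytoma, although its label gives mouse as the organism. The plasmid DNA, sequenced before transfection, was the input shared by all lines. Each line is 1 culture type carrying human fragments on plasmids, in 2 lines in rodent cells, and no treatment or allele of the cells' own genome was compared. Reporter counts hold no cellular genes, so the identity of a line could not be checked against markers.

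Enhancers are stretches of DNA that bind transcription factors and raise transcription from promoters that can lie far away, and most common variants linked to schizophrenia lie outside protein-coding sequence. A fragment with enhancer activity on a plasmid gives more RNA than its share of the plasmid pool, and a fragment that gives less lies below it. Setting the RNA of 2 alleles against their own input asks whether the base at the SNP changes that output, which is the question named in the title of the series. The position of the SNP in the fragment was also varied, which changes how much neighbouring sequence lies on each side of it.

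Fragments placed the SNP after 50, 100 or 150 bases, with the rest of the fragment behind it, called here the 50-base, 100-base and 150-base placements. On chromosome 1, 16 SNPs had all 3 placements, 1 SNP had 2 and 1 had 1. The 3 fragments of a SNP overlap and share its surroundings, so they are not separate sites. Allele numbers 1 and 2 follow the tables. The bases of the alleles and the sequences of the fragments were not used here, so none is shown.

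The positions are those in the fragment names. The sources used here do not give their genome build, and the gene names below hold only if the positions refer to GRCh38.p14, the build of the RefSeq gene table used. On that build 9 of the 18 SNPs lay inside a protein-coding gene, 5 inside another annotated gene only and 4 inside none. None of the 18 lay within 150 bases of a promoter window of that annotation (0 of 18). Exons and introns could not be told apart from the gene table. From low to high coordinate, positions 110779397 and 110782105 lay in no annotated gene, 91.81 and 89.11 kb from CD53, a leukocyte tetraspanin. Positions 150042041, 150045305 and 150059494 lay in OTUD7B, which encodes a deubiquitinase. Position 150143220 lay in VPS45, which encodes a protein of vesicle fusion. The SNP at 150.52 Mb lay in the long non-coding RNA gene FALEC, 5.849 kb from ECM1, which encodes a secreted matrix glycoprotein. Position 153950800 lay in CRTC2, a coactivator of the transcription factor CREB. Position 163708219 and the SNP at 163.79 Mb had NUF2, a kinetochore protein, as the nearest protein-coding gene, at 352.5 and 438.2 kb, and the SNP at 163.79 Mb lay in the non-coding gene LOC124904447. Positions 173611164 and 173677634 lay in ANKRD45, an ankyrin repeat gene. Position 174152950 lay in RABGAP1L-DT, 6.57 kb from RABGAP1L, a Rab GTPase-activating protein gene. Position 200413959 lay in no annotated gene, 3.923 kb from ZNF281, a zinc finger transcription factor gene. Position 205046156 lay in CNTN2, which encodes an axonal adhesion molecule. Position 207803738 lay in the miRNA host gene MIR29B2CHG, 8.222 kb from CD46, a complement regulator. Position 213974546 lay in PROX1-AS1, 8.605 kb from the homeobox gene PROX1. Position 230136877 lay in GALNT2, which encodes an enzyme that starts O-linked glycosylation.

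Neuro-2a, SH-SY5Y and HEK-293T had 3 RNA libraries each and PC-12 had 2, numbered 1 and 3, against the same 3 input libraries. The tables held between 5875437 and 10201521 counts per RNA library and between 6380682 and 8421333 per input library, of which chromosome 1 took 4.06 to 4.89% and 4.95 to 5.27%. Both alleles were present for 37 chromosome 1 fragments in HEK-293T, 35 for Neuro-2a, 36 for SH-SY5Y and 39 for PC-12, and 14, 16, 15 and 11 fragments had 1 allele only. Every chromosome 1 allele in the tables passed the minimum mean count of 10, so 88, 86, 87 and 89 alleles were tested. RNA counts of 0 made up 15 of 264 values in HEK-293T, 21 of 258 for Neuro-2a, 5 of 261 for SH-SY5Y and 7 of 178 in PC-12.

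RNA replicate 1 stood apart from the others in its spread, and for SH-SY5Y and Neuro-2a also in its correlation with them. The median distance of a chromosome 1 allele from its input, on the log2 scale, was 0.58 in replicate 1 of Neuro-2a, against 1.20 and 0.95 in replicates 2 and 3. It was 0.54 against 1.04 and 1.09 in SH-SY5Y, 0.45 against 1.33 and 0.98 in HEK-293T, and 0.56 in replicate 1 against 1.13 in replicate 3 of PC-12. Over all SNPs the replicate 1 medians were 0.41 to 0.55 and the others 0.79 to 1.12. Over chromosome 1 alleles without an RNA count of 0, replicate 1 correlated with replicates 2 and 3 at 0.16 and 0.31 (Pearson) for Neuro-2a. Replicates 2 and 3 correlated at 0.57 there. HEK-293T gave 0.48, 0.67 and 0.61 in that order, so replicate 3 was closer to replicate 1 than to replicate 2. SH-SY5Y gave 0.41, 0.41 and 0.83. Replicates 1 and 3 of PC-12 correlated at 0.59. The labels do not say what sets the replicate numbers apart, and the cause was not tested. Counts of calls from fits without RNA replicate 1 are given below. Replicates of 1 line are separate transfections per the labels' protocols, which name no day or batch.

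The activity of an allele is its RNA over its input as a log2 ratio, set against the library's typical allele, and was tested in each line with edgeR's quasi-likelihood test and Benjamini-Hochberg adjustment over every allele of the series in that line. At an adjusted p of 0.05, 3 of 86 chromosome 1 alleles were above the input in Neuro-2a (4.08% of all alleles tested) and 2 were below it (1.70%). In SH-SY5Y, 7 of 87 were above (7.43%) and 8 below (5.51%). In HEK-293T, 2 of 88 were above (1.35%) and 1 below (1.02%). In PC-12, 2 of 89 were above (5.64%) and 7 below (4.77%). Whether these shares differ from those of the whole library was not tested. Calls fell on 23 alleles of 14 SNPs, and the SNPs in VPS45, RABGAP1L-DT, MIR29B2CHG and GALNT2 had none. These counts pool several fragments and alleles per SNP over 4 lines. The same count over all SNPs was not made, so they cannot be set against the library. The lines share their input, so their calls are not independent. Leaving out any 1 of the 3 input libraries left 0 chromosome 1 calls in every line, and leaving out RNA replicate 1 gave 33 in HEK-293T, 34 for Neuro-2a, 55 for SH-SY5Y and 79 for PC-12. Over all SNPs the same omission led to calls for 31.8%, 41.3%, 54.9% and 90.1% of the alleles. PC-12 then has 1 RNA library, which the fit assumes to vary like the input libraries.

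The SNP 438.2 kb from NUF2, at 163.79 Mb, had the lowest chromosome 1 value in each line. Allele 1 in the 150-base placement had 5.1, 9.62 and 21.3 CPM (the usual count normalized to library size, here with TMM scaling) in the RNA of HEK-293T replicates 1 to 3, against 1062, 967 and 1007 CPM in the 3 input libraries. All RNA libraries lay far below all input libraries, and the log2 ratio was -6.40 ± 0.66 (SE; edgeR adjusted p = 0.0242). With limma-voom the adjusted p was 0.0618. The same allele had 0, 13.6 and 97.1 CPM in Neuro-2a RNA, against 1016, 928 and 979 CPM in the input, a log2 ratio of -4.72 ± 1.96 with an edgeR adjusted p of 0.205. It had 0, 15.1 and 87.8 CPM in SH-SY5Y RNA, with -4.83 ± 1.94 and an adjusted p of 0.143. RNA replicate 1 was at 0 in both neuroblastoma lines, and every RNA library of these lines lay below the input. The allele was not in the PC-12 table, and allele 2 of this placement was in none.

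In the 100-base placement of the SNP at 163.79 Mb, allele 2 lay below the input in each line, while allele 1 could be measured in Neuro-2a only. Allele 2 had 371, 0 and 189 CPM in Neuro-2a RNA, against 1270.2, 1211 and 1224 CPM in the input. It had 59.3, 65.1 and 0 CPM in SH-SY5Y RNA, 67.3, 548 and 26.8 CPM in HEK-293T RNA, and 87 and 0 CPM in replicates 1 and 3 of PC-12 RNA. Its log2 ratios were -2.58 ± 1.13, -2.73 ± 1.89, -4.90 ± 1.76 and -4.82 ± 2.48 in HEK-293T, Neuro-2a, SH-SY5Y and PC-12, and no adjusted p was below 0.114 (edgeR). Every RNA value lay below every input value, with a count of 0 in 1 library of Neuro-2a, SH-SY5Y and PC-12 each. Allele 1 was in the Neuro-2a table only, where it was rare in the plasmid pool, at 2.43, 3.02 and 0 CPM. Its RNA was 0, 98.7 and 172 CPM, so 1 library was at 0 and the other 2 lay far above the input (log2 ratio 5.62 ± 2.93, edgeR adjusted p = 0.305). The allelic effect, the activity of allele 2 minus that of allele 1, was -9.96 ± 7.39 there (edgeR adjusted p = 0.688). It was 2.69, -19.69 and -9.27 in the 3 libraries, so allele 2 was the higher in replicate 1. Replicates 1 and 2 each had 1 allele at 0. With DESeq2 the adjusted p was 0.0439, and the highest over the settings tried was 0.966.

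The 50-base placement of the SNP at 163.79 Mb lay closer to the input. Allele 2 had 259 and 227 CPM in PC-12 RNA, against 670.0, 664 and 666 CPM in the input, and its log2 ratio was -1.46 ± 0.13 (edgeR adjusted p = 0.0107). Allele 1 had 377 and 274 CPM in PC-12 RNA, against 748, 721 and 717 CPM in the input, with -1.16 ± 0.19 and an adjusted p of 0.0343. RNA and input did not overlap for either allele. In SH-SY5Y allele 1 had 268, 328 and 461 CPM in RNA, also below every input library, with -1.06 ± 0.25 and an edgeR adjusted p of 0.0461, which was 0.0871 without RNA replicate 2. The remaining values did not pass: allele 1 was at -0.96 in Neuro-2a and 0.03 in HEK-293T, and allele 2 at -1.26, -0.99 and -0.89 in Neuro-2a, SH-SY5Y and HEK-293T. The allelic effects were -0.94 ± 0.52, -0.06 ± 0.64, -0.01 ± 0.57 and -0.28 ± 0.21 in HEK-293T, Neuro-2a, SH-SY5Y and PC-12, none past the threshold. Allele 1 in the 150-base placement was lower than in the 50-base placement by a log2 difference of -6.59 ± 0.84 in HEK-293T (edgeR adjusted p = 0.0564). In Neuro-2a the 150-base minus 100-base difference of allele 1 was -11.53 ± 2.90, with an adjusted p of 0.228, and it rests on the rare allele with 1 RNA library at 0.

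The neighbouring SNP at position 163708219, 352.5 kb from NUF2, had calls on both sides of the input. Allele 2 in the 50-base placement had 361, 180.0 and 229 CPM in Neuro-2a RNA, against 934, 873 and 920.3 CPM in the input, a log2 ratio of -1.82 ± 0.32 (edgeR adjusted p = 0.0321, and 0.0611 without RNA replicate 3). In SH-SY5Y it had 456, 354 and 427 CPM in RNA, with -1.14 ± 0.17 and an adjusted p of 0.0213. All RNA libraries of both lines lay below the input. Allele 1 in the 150-base placement had 954 and 932 CPM in PC-12 RNA, against 488, 507 and 477 CPM in the input, a log2 ratio of 0.94 ± 0.11 (edgeR adjusted p = 0.0173). In Neuro-2a it had 899, 835 and 917 CPM in RNA, with 0.84 ± 0.16 and an adjusted p of 0.0462, or 0.0520 with the size factors of DESeq2. RNA lay above the input in every library of these 2 lines, while in SH-SY5Y and HEK-293T the ratios were 0.10 and 0.60 with replicates on both sides. In Neuro-2a, allele 2 was higher in the 150-base than in the 50-base placement by 2.20 ± 0.46 and allele 1 by 1.88 ± 0.52 on the log2 scale, with edgeR adjusted p-values of 0.113 and 0.224.

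The SNP 5.849 kb from ECM1, at 150.52 Mb, was called in SH-SY5Y only, for allele 2 in the 150-base placement, and no difference between lines passed for it. This allele had 1208, 1334 and 1932 CPM in SH-SY5Y RNA, against 677, 659 and 685 CPM in the input, a log2 ratio of 1.15 ± 0.21 (edgeR adjusted p = 0.0281). Every SH-SY5Y library lay above every input library. It had 722, 1154 and 1448 CPM in Neuro-2a, 1171, 872 and 1074 CPM in HEK-293T and 1435 and 1023 CPM in PC-12. The log2 ratios there were 0.72 ± 0.28, 0.57 ± 0.19 and 0.88 ± 0.18, with edgeR adjusted p-values of 0.183, 0.146 and 0.059. Allele 1 of this placement was in no table, so no allelic effect could be computed for it.

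In the 100-base placement of the SNP at 150.52 Mb, allele 1 had 945, 925 and 751 CPM in Neuro-2a RNA, against 889.9, 832 and 877 CPM in the input. Its log2 ratios were 0.12, 0.01, 0.11 and 0.65 in HEK-293T, Neuro-2a, SH-SY5Y and PC-12, and its edgeR adjusted p in PC-12 was 0.059. PC-12 RNA held 1496 and 1216 CPM of it, the 2 highest values of the 11 RNA libraries. Allele 2 had 639, 366 and 667 CPM in Neuro-2a RNA and 423 and 265 CPM in PC-12 RNA, against 325, 329 and 335 CPM in the input, and ratios of -0.07, 0.76, 0.15 and 0.07 in the same order of lines. The allelic effect was 0.70 ± 0.40 in Neuro-2a and -0.62 ± 0.21 in PC-12, with edgeR adjusted p-values of 0.583 and 0.59. With DESeq2 the adjusted p in PC-12 was 0.00865, and the highest over the settings tried was 0.779. In SH-SY5Y and HEK-293T the allelic effect was 0.02 ± 0.26 and -0.24 ± 0.35. In the 50-base placement allele 1 was rare, at 28.4, 30.9 and 31.9 CPM in the input, and was not in the Neuro-2a table. It had 78.5, 23.1 and 61.3 CPM in SH-SY5Y RNA, 32.7, 0 and 34.1 CPM in HEK-293T RNA and 35 and 0 CPM in PC-12 RNA. Allele 2 lay at 0.16, 0.58, 0.63 and 0.53 in HEK-293T, Neuro-2a, SH-SY5Y and PC-12, with no call. The allelic effects of this placement were -0.14 ± 0.40, 1.44 ± 2.80 and 4.04 ± 3.58 in SH-SY5Y, HEK-293T and PC-12, and the last 2 rest on an allele with 1 RNA library at 0.

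Of the SNPs in OTUD7B, position 150059494 had 6 calls, all above the input. Allele 1 in the 50-base placement had 2177, 2072 and 2301 CPM in Neuro-2a RNA, against 1364, 1268 and 1349 CPM in the input. It had 2263, 2774 and 2541 CPM in SH-SY5Y, 2111, 2325 and 2526 CPM in HEK-293T and 1567 and 2065 CPM in PC-12. Each RNA library lay above its input mean, and the replicates of a line were close to each other. In HEK-293T, Neuro-2a, SH-SY5Y and PC-12 the log2 ratios were 0.75 ± 0.12, 0.72 ± 0.12, 0.93 ± 0.12 and 0.46 ± 0.15, with edgeR adjusted p-values of 0.0463, 0.029, 0.014 and 0.129. Without RNA replicate 3 the adjusted p in HEK-293T was 0.0535. Allele 2 in the 100-base placement had 1481, 2872 and 2578 CPM in SH-SY5Y and 1410.0, 2097 and 2403 CPM in HEK-293T RNA, against 757, 720.5 and 742 CPM in the input, with log2 ratios of 1.64 ± 0.26 and 1.36 ± 0.23 and edgeR adjusted p-values of 0.0229 and 0.0463. In HEK-293T the adjusted p was 0.0530 without RNA replicate 2 and 0.0779 without replicate 3. In Neuro-2a and PC-12 this allele lay at 1.29 and 1.36 without a call. Allele 1 of the same placement lay at 1.75, 1.69, 1.88 and 1.36 in HEK-293T, Neuro-2a, SH-SY5Y and PC-12, also without a call.

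Allele 1 in the 150-base placement of position 150059494 was rare in the input, at 20.5, 23.1 and 26.1 CPM, and had 78.9, 178 and 95.8 CPM in SH-SY5Y RNA. All 3 RNA values exceeded the input, with a log2 ratio of 2.34 ± 0.47 (edgeR adjusted p = 0.0344, and 0.215 with limma-voom). In PC-12 RNA it had 73.2 and 101 CPM, a log2 ratio of 1.92 ± 0.39 and an adjusted p of 0.059. Neuro-2a and HEK-293T each had 1 RNA library at 0. The allelic effect of this placement was -1.58 ± 0.41 in PC-12 and -1.25 ± 0.36 in SH-SY5Y, with allele 2 the lower in every library of both lines, and edgeR adjusted p-values of 0.59 and 0.355. In PC-12, allele 1 was higher in the 150-base than in the 50-base placement by 1.46 ± 0.19 on the log2 scale (edgeR adjusted p = 0.0452, and 0.247 with limma-voom), with 1.42 and 1.49 in replicates 1 and 3.

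The other 2 SNPs in OTUD7B had 1 call each, in opposite directions. Position 150042041, carried in the 150-base placement only and by allele 1 only, had 336, 434 and 808 CPM in Neuro-2a RNA, against 107, 109 and 99.2 CPM in the input, a log2 ratio of 2.32 ± 0.43 (edgeR adjusted p = 0.04, and 0.155 with limma-voom). In SH-SY5Y, HEK-293T and PC-12 it lay at 1.34, 1.65 and 1.59, and replicate 1 of SH-SY5Y and PC-12 lay below the input mean. Position 150045305 had 316 and 306 CPM of allele 2 in the 150-base placement in PC-12 RNA, against 677, 665 and 652 CPM in the input, a log2 ratio of -1.10 ± 0.11 (edgeR adjusted p = 0.0133). The ratios in Neuro-2a, SH-SY5Y and HEK-293T were -0.83, -0.44 and -0.43, with 1 Neuro-2a library at 0. The SNP in VPS45, position 150143220, had no call. Its allele 1 in the 50-base placement had 1723, 1419 and 2133 CPM in Neuro-2a and 1141, 1131 and 1164 CPM in SH-SY5Y RNA, against 1150.4, 1166 and 1141 CPM in the input, and log2 ratios of 0.61 ± 0.18 and -0.01 ± 0.11. Allele 2 in its 100-base placement lay at 1.89, 1.05, 1.24 and 1.36 in HEK-293T, Neuro-2a, SH-SY5Y and PC-12, with replicate 1 near or below the input in each line.

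The SNP in CRTC2, position 153950800, was below the input for both alleles of the 50-base placement. Allele 1 had 605, 609 and 402 CPM in SH-SY5Y RNA, against 1901, 1747 and 1782 CPM in the input, a log2 ratio of -1.75 ± 0.20 (edgeR adjusted p = 0.0103). In PC-12 RNA it had 909 and 571 CPM, with -1.28 ± 0.24 and an adjusted p of 0.0488. Allele 2 had 653, 547 and 525 CPM in SH-SY5Y RNA, against 1213, 1164 and 1210.2 CPM in the input, with -1.06 ± 0.15 and an adjusted p of 0.0195. All RNA libraries lay below all input libraries in these comparisons. The uncalled ratios were -0.96 and -1.24 for allele 1 in Neuro-2a and HEK-293T, and -0.75, -0.70 and -1.27 for allele 2 in Neuro-2a, HEK-293T and PC-12. Allele 2 in the 150-base placement, rare at 20.4, 18.6 and 24.6 CPM in the input, had 52.5, 33.4 and 39 CPM in SH-SY5Y RNA. It was higher than in the 50-base placement by 2.02 ± 0.31 on the log2 scale, with 2.18, 1.78 and 2.07 in the 3 libraries (edgeR adjusted p = 0.0457, and 0.235 with limma-voom). The same difference was 2.41 ± 0.83 in PC-12 (edgeR adjusted p = 0.238). In HEK-293T it was -1.04 ± 2.45, with 0.87, -8.00 and 0.10 in the libraries (edgeR adjusted p = 0.688).

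Of the 2 SNPs nearest to CD53, position 110782105 lay below the input in its 150-base placement for both alleles. Allele 1 had 458, 169 and 233 CPM in Neuro-2a and 275, 113 and 196 CPM in SH-SY5Y RNA, against 1404, 1378 and 1409.5 CPM in the input. The log2 ratios were -2.28 ± 0.41 and -2.85 ± 0.35, with edgeR adjusted p-values of 0.0359 and 0.0128, and 0.0739 in Neuro-2a without RNA replicate 3. Allele 2 had 223 and 133 CPM in PC-12 RNA, against 1469, 1463 and 1497 CPM in the input, with -3.05 ± 0.29 and an adjusted p of 0.0114. Every RNA library of every line held fewer CPM of both alleles than any input library. Allele 1 lay at -3.61 in PC-12 and -2.32 in HEK-293T, while allele 2 lay at -2.97, -4.07 and -2.09 in Neuro-2a, SH-SY5Y and HEK-293T, without calls. In SH-SY5Y, allele 2 minus allele 1 was -12.57 in replicate 1, against 0.48 and -1.09 in replicates 2 and 3. The -4.07 therefore rests in part on a replicate 1 at or near a count of 0. The 100-base placement of allele 1 stayed near the input, at -0.09, 0.20, -0.01 and 0.36 in HEK-293T, Neuro-2a, SH-SY5Y and PC-12. The 150-base placement was lower than the 100-base one by a log2 difference of -2.89 ± 0.30 in SH-SY5Y, with -2.77, -3.25 and -2.65 in the 3 libraries (edgeR adjusted p = 0.0236). In HEK-293T this difference was -2.48 ± 0.62 with an adjusted p of 0.246. Allele 2 in the 50-base placement lay at 1.55, 1.48, 1.51 and 1.35 in the same order of lines, uncalled.

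Position 110779397, 2.708 kb away, was above the input for allele 2 in the 150-base placement, with 1012, 3423 and 2953 CPM in SH-SY5Y RNA, against 539, 507 and 529 CPM in the input. Its log2 ratio was 2.23 ± 0.46 (edgeR adjusted p = 0.0352), and the adjusted p was 0.103 with limma-voom, 0.0736 without RNA replicate 2 and 0.0777 without replicate 3. It had 1007, 3892 and 237 CPM in Neuro-2a, 819, 2915 and 3112 CPM in HEK-293T and 1152 and 3906 CPM in PC-12 RNA. Replicate 1 was the lowest of its line in SH-SY5Y, HEK-293T and PC-12, and replicate 3 of Neuro-2a lay below the input. The ratios were 1.71, 2.07 and 2.28 in Neuro-2a, HEK-293T and PC-12, without calls. Allele 1 of the placement lay at -0.21, -0.43, -0.43 and 0.54 in HEK-293T, Neuro-2a, SH-SY5Y and PC-12.

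The SNPs in ANKRD45 held the chromosome 1 fragments with the smallest allelic p in Neuro-2a and SH-SY5Y. Position 173611164 in the 50-base placement had 198, 337 and 219 CPM of allele 1 in SH-SY5Y RNA, against 1146, 1079 and 1127 CPM in the input, and 379 and 334 CPM in PC-12 RNA. The log2 ratios were -2.15 ± 0.26 and -1.64 ± 0.13, with edgeR adjusted p-values of 0.0104 and 0.00787. Allele 1 lay at -1.14 in Neuro-2a and -1.63 in HEK-293T without a call. Allele 2, rarer in the input at 81.8, 78.5 and 77.3 CPM, had 149.9, 393 and 272 CPM in Neuro-2a RNA, a log2 ratio of 1.78 ± 0.51. The allelic effect was 2.52, 3.74 and 2.37 in the 3 Neuro-2a libraries and 1.93, 3.09 and 3.81 in the 3 SH-SY5Y libraries, so allele 2 was the higher in each. The fitted effects were 2.87 ± 0.51 and 2.95 ± 0.55, with edgeR adjusted p-values of 0.264 and 0.289. With DESeq2 they were 5.59e-08 and 0.000319, and over every setting tried the adjusted p ran between 5.59e-08 and 0.966 in Neuro-2a and between 0.000319 and 0.699 in SH-SY5Y. In HEK-293T and PC-12 the effects were 1.65 ± 1.01 and 2.01 ± 1.37, with replicate 1 at -0.35 and 0.09. In HEK-293T, allele 1 was higher in the 100-base than in the 50-base placement by 1.53 ± 0.37 (edgeR adjusted p = 0.246).

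Position 173677634 had 194, 1638 and 1286 CPM of allele 2 in the 100-base placement in SH-SY5Y RNA, against 93.6, 104 and 104 CPM in the input. Its log2 ratio was 3.37 ± 0.78 (edgeR adjusted p = 0.0461), the highest called chromosome 1 value in any line, and the adjusted p was 0.304 with limma-voom and 0.0952 and 0.0953 without RNA replicates 2 and 3. It had 22.5, 1022 and 1222 CPM in Neuro-2a, 149, 1161 and 1701 CPM in HEK-293T and 66.8 and 1196 CPM in PC-12 RNA. Replicate 1 lay below or within 1 log2 unit of the input in each line, and the other libraries lay more than 3 log2 units above it. The allelic effect in SH-SY5Y was 3.74 ± 0.96 (edgeR adjusted p = 0.355), with 1.88, 3.98 and 5.29 in the libraries.

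The SNP in CNTN2, position 205046156, had differing directions by placement. Allele 2 in the 100-base placement had 613, 919 and 787 CPM in SH-SY5Y RNA, against 379, 395 and 369.6 CPM in the input, a log2 ratio of 1.02 ± 0.21 (edgeR adjusted p = 0.0344, and 0.0568 without RNA replicate 3). Allele 1 of that placement had 813, 1181 and 1276 CPM in SH-SY5Y RNA, against 921, 900.1 and 941 CPM in the input, a log2 ratio of 0.24 ± 0.20. In the 150-base placement allele 1 had 134, 254 and 142 CPM in SH-SY5Y RNA, against 510.2, 527 and 522 CPM in the input, with -1.56 ± 0.32 and an edgeR adjusted p of 0.0344, or 0.0721 without RNA replicate 3. Allele 2 of the 150-base placement had 432 and 346 CPM in PC-12 RNA, against 1100.3, 1151 and 1104 CPM in the input, with -1.53 ± 0.15 and an adjusted p of 0.0121. RNA and input did not overlap in any of these called comparisons.

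The allelic effect of the 100-base CNTN2 fragment was 1.02, 0.63 and 1.91 in the Neuro-2a libraries, 0.87, 0.91 and 0.57 for SH-SY5Y, 0.58, 0.98 and 1.04 for HEK-293T and 0.54 and 0.97 for PC-12. Allele 2 was the higher in every library. All these values are set against the same 3 input libraries, so they are not independent. The fragment is named because its allelic p was among the 3 smallest on chromosome 1 in each line. That choice favours fragments with 1 sign within a line. Over all SNPs, 33.0%, 34.5%, 40.3% and 53.5% of fragments had 1 sign in all libraries of HEK-293T, Neuro-2a, SH-SY5Y and PC-12. On chromosome 1 the shares were 35.1%, 31.4%, 38.9% and 61.5%. These shares are for 1 line at a time, and no share with 1 sign across all lines is given to set beside this fragment. In HEK-293T, Neuro-2a, SH-SY5Y and PC-12 the fitted effects were 0.87 ± 0.26, 1.18 ± 0.42, 0.78 ± 0.21 and 0.76 ± 0.23, and with edgeR the adjusted p-values were 0.677, 0.444, 0.355 and 0.59. With DESeq2 they were 0.000357, 0.0378, 0.0280 and 0.00460. The highest adjusted p over the settings tried was 0.940, 0.966, 0.699 and 0.779 in the same order. The 50-base placement gave 3.66 ± 3.0, 2.36 ± 3.19, 1.90 ± 1.11 and 2.24 ± 0.86, and the 150-base placement -0.30 ± 0.42, 0.01 ± 0.45, 0.60 ± 0.41 and 0.22 ± 0.27, in the same order of lines. For the 50-base placement, replicate 2 stood at 11.54 in HEK-293T and 12.59 in Neuro-2a, a size that comes with a count at or near 0. Replicates 1 and 3 were at 0.56 and 3.09 in HEK-293T and at 1.04 and 0.50 in Neuro-2a. Replicate 1 of SH-SY5Y had the opposite sign, at -0.51.

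Position 213974546 in PROX1-AS1 had 684, 851 and 490.3 CPM of allele 2 in the 100-base placement in SH-SY5Y RNA, against 1411, 1377 and 1407 CPM in the input, a log2 ratio of -1.05 ± 0.22 (edgeR adjusted p = 0.0391). All 3 libraries lay below the input. Its allelic effect in Neuro-2a was -1.33 ± 0.46 in this placement, with -0.54, -1.34 and -2.10 in the libraries (edgeR adjusted p = 0.444). In the 50-base placement it was -1.13 ± 0.44 in HEK-293T (edgeR adjusted p = 0.677). Position 200413959, near ZNF281, had 1104 and 1347 CPM of allele 1 in the 150-base placement in PC-12 RNA, against 521, 558 and 531 CPM in the input, a log2 ratio of 1.19 ± 0.14 (edgeR adjusted p = 0.0176). The ratios in Neuro-2a, SH-SY5Y and HEK-293T were 1.04, 0.48 and 0.76, and RNA lay above its input mean in each of their libraries. Its allelic effect in HEK-293T was -1.05 ± 0.41, with allele 2 the lower in all 3 libraries (edgeR adjusted p = 0.677).

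The SNPs in RABGAP1L-DT, MIR29B2CHG and GALNT2 had no call. Position 174152950 reached 1.66 ± 0.42 for allele 1 of the 150-base placement in SH-SY5Y, with 304, 825 and 848 CPM in RNA, against 216, 206 and 202 CPM in the input (edgeR adjusted p = 0.0555). Position 207803738 had an allelic effect of -0.53 ± 0.16 in the 150-base placement in PC-12 (edgeR adjusted p = 0.59), with allele 2 the lower in both libraries. Position 230136877 carried the highest fitted chromosome 1 value in each line, for allele 1 of the 50-base placement, which is named because of those values. This allele was rare in the plasmid pool, at 22.5, 23.9 and 20.7 CPM. Its RNA was 0, 2146 and 1299.6 CPM in Neuro-2a, 39.3, 1179.8 and 1237 CPM in SH-SY5Y, 31.8, 175 and 1005 CPM in HEK-293T and 25.5 and 1092 CPM in PC-12. Replicate 1 was at 0 or close to the input, and the other libraries of each line lay several times above it. In HEK-293T, Neuro-2a, SH-SY5Y and PC-12 the log2 ratios were 4.12 ± 1.29, 5.68 ± 2.47, 5.19 ± 1.26 and 4.65 ± 1.53, with edgeR adjusted p-values of 0.142, 0.22, 0.0504 and 0.131.

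Across all alleles of chromosome 1, the median activity was -0.23 in HEK-293T, 0.19 for Neuro-2a, -0.01 for SH-SY5Y and 0.11 for PC-12, against -0.11, 0.01, -0.01 and -0.01 over all SNPs. The fitted ratios ran between -6.40 and 4.12 in HEK-293T, -4.72 and 5.68 in Neuro-2a, -4.90 and 5.19 for SH-SY5Y, and -4.82 and 4.65 for PC-12. RNA lay on the same side of the input in all libraries of the line for 51 of 88 alleles in HEK-293T, 39 of 86 for Neuro-2a, 50 of 87 for SH-SY5Y and 60 of 89 in PC-12, which has 2 libraries. The chromosome 1 shares were 58.0%, 45.3%, 57.5% and 67.4%, against 48.8%, 48.7%, 54.4% and 65.1% over all SNPs.

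For the allelic comparison, no chromosome 1 fragment passed in any line with edgeR (0 of 37 in HEK-293T, 35 for Neuro-2a, 36 for SH-SY5Y and 39 for PC-12). Over all SNPs 0%, 0.187%, 0.166% and 0% of the fragments passed in these lines. At an unadjusted p of 0.05, 3 chromosome 1 fragments lay below the threshold in HEK-293T, 3 for Neuro-2a, 10 for SH-SY5Y and 7 for PC-12, against 4.13%, 10.9%, 13.5% and 7.24% of all fragments. With DESeq2, 1, 4, 4 and 9 chromosome 1 fragments passed in the same order, against 0.990%, 12.7%, 4.49% and 10.7% of all fragments, and limma-voom called 0 in every line, on chromosome 1 and over all SNPs. Without RNA replicate 1, edgeR called 10, 8, 19 and 37 chromosome 1 fragments, against 20.8%, 30.5%, 46.9% and 89.3% of all fragments. The median size of the effect was 0.79, 0.93, 0.65 and 0.90 on the log2 scale, against 1.01, 0.92, 0.75 and 0.79 over all SNPs, again in that order. An effect under 1 was found for 22, 19, 23 and 20 of the chromosome 1 fragments. Over all SNPs this held for 300 of 606, 289 of 534, 365 of 601 and 379 of 635 fragments. Allele 2 was the higher for 21, 18, 21 and 21 of the chromosome 1 fragments and allele 1 for 16, 17, 15 and 18. Over all SNPs allele 2 was the higher for 307, 270, 309 and 312 fragments and allele 1 for 299, 264, 292 and 323.

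Between placements of the same SNP and allele, 0 of 72 chromosome 1 pairs passed in HEK-293T (0.337% of all pairs tested), 0 of 69 for Neuro-2a (1.22%), 2 of 70 for SH-SY5Y (2.60%) and 1 of 75 in PC-12 (4.25%), with edgeR. Those 3 pairs, of the SNPs near CD53, in CRTC2 and in OTUD7B, are given above. At an unadjusted p of 0.05, 13, 8, 20 and 27 chromosome 1 pairs lay below the threshold in that order of lines, against 12.3%, 14.2%, 23.2% and 19.7% of all pairs. DESeq2 called 16, 12, 26 and 38 on chromosome 1 and 15.7%, 17.5%, 30.3% and 34.7% of all pairs. Without RNA replicate 1, edgeR called 19, 20, 38 and 69 chromosome 1 pairs and 25.3%, 29.5%, 49.4% and 86.3% of all pairs. The median difference of the 150-base minus the 50-base placement was -0.07 in HEK-293T, -0.36 for Neuro-2a, 0.64 for SH-SY5Y and 1.07 for PC-12, against -0.03, 0.06, 0.07 and 0.11 over all SNPs. In PC-12 the 150-base placement was the higher in 17 of 25 pairs, against 213 of 410 over all SNPs. In Neuro-2a it was the higher in 9 of 23 (177 of 342 over all SNPs). The counts were 14 of 23 in SH-SY5Y (205 of 388) and 11 of 24 in HEK-293T (187 of 379). The pairs share fragments, lines and input, so these counts are not independent.

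Between lines, no chromosome 1 allele passed the test that the 4 RNA levels are equal (0 of 83 with edgeR, 0% of the 1436 alleles tested over all SNPs). At an unadjusted p of 0.05, 0 chromosome 1 alleles lay below the threshold, against 2.79% of all alleles. DESeq2 called 0 on chromosome 1 and 1.60% of all alleles, and limma-voom called 0 in both. The input drops out of this test. The smallest p-values were 0.0619 for allele 2 of the 150-base placement at position 207803738 in MIR29B2CHG, 0.109 for allele 1 of the 150-base placement at 230136877 in GALNT2 and 0.111 for allele 1 of the 50-base placement at 150143220 in VPS45, all with an edgeR adjusted p of 1.00. The MIR29B2CHG allele had 1297, 1083 and 1491 CPM in Neuro-2a, 949, 536 and 382 CPM in SH-SY5Y, 770.5, 756 and 612 CPM in HEK-293T and 1327 and 899 CPM in PC-12 RNA, against 1263, 1213 and 1238 CPM in the input. The Neuro-2a libraries lay above all those of SH-SY5Y and HEK-293T, while 1 PC-12 library lay in the range of Neuro-2a and the other in that of SH-SY5Y. With the RNA replicate number as a block, the test between lines also called 0 chromosome 1 alleles.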

How the data were processed

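The authors deposited 1 table of whole-number read counts per line, whose columns per the file headers give the alleles by RNA and plasmid input library. The labels' protocols describe transfection of the plasmids in triplicate and an input amplified by PCR beforehand. Limma 3.40.6 was used per the submitters' processing notes. An aligner, a counting tool or a build was not given in the sources used here. PC-12 replicate 2 was not used here. An allele absent from a line has a count of 0 in all its columns and was not tested there.

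Counts were fitted in R 4.3.3 with edgeR 4.0.16 (quasi-likelihood F test, two-sided), 1 fit per line over the whole table, after a minimum mean count of 10 and scaling by the trimmed mean of M values (TMM). P-values were adjusted by Benjamini-Hochberg over all SNPs of the line. The allelic effect was the interaction of allele with RNA in a table with 1 column per library and allele. The placement difference was the interaction of placement with RNA. The test between lines used the 11 RNA libraries. An SE is the estimate divided by the root of its F statistic. Per-library log2 values take a count of 0 as 0.5. The scripts were tested on simulated data.

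Alternatives were DESeq2 1.42.0, limma-voom with limma 3.58.1, DESeq2 size factors in edgeR, a minimum count of 50 or none, alleles with a 0 in RNA left out, each library left out in turn, and, between lines, a replicate block. The members, tests and lists were chosen with earlier results of these data known. Named were all fragments of the SNPs near NUF2 and ECM1, all called alleles, the 3 smallest p-values where a comparison had no call, and the called pairs of placements. Other values were added to describe the same fragments. Depth bounds the counting error only, since PCR reads are not independent molecules. P-values measure the spread between these libraries, and the fits with input take RNA and input to vary alike. The input libraries of a line differed less, with a chi-square per degree of freedom of 40.3 to 48.9 between 2 libraries. Between RNA libraries of a line it was 361 to 1526. The p-values and SEs of these fits mix both spreads, so they can understate the spread between RNA libraries.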

Additional observations from a re-analysis of the deposited data

Results flagged for a closer look

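Every chromosome 1 allele, fragment and pair of placements present in at least 2 lines was screened for lines of opposite direction, with every RNA library of 1 line on one side and every library of the other on the opposite side. This held for 6 of 88 alleles in their activity, 2 of 37 fragments in their allelic effect and 5 of 72 pairs in their placement difference. The screen covered chromosome 1 only, so there is no share over all SNPs to set beside these counts. Whether they exceed what libraries of this spread would give was not tested. PC-12 has 2 RNA libraries, so fewer of them had to lie on 1 side. The edgeR test between the 4 lines gave each of the 6 alleles an adjusted p of 1.00. The opposite allelic effects and placement differences were not tested. The lines share their input libraries. All values are on the log2 scale.

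Allele 2 of the 150-base placement at position 150143220 in VPS45 had an activity of 1.66 in SH-SY5Y and -1.79 in PC-12, a difference of 3.449 with 1 PC-12 library at 0. Allele 2 of the 100-base placement at position 163708219 was at 1.00 in Neuro-2a, against -0.51, -0.84 and -0.71 in SH-SY5Y, HEK-293T and PC-12, differences of 1.511, 1.847 and 1.716. Allele 1 of the 100-base placement at position 174152950 in RABGAP1L-DT was at 0.28 in PC-12 and -1.32 in HEK-293T, which differ by 1.597, with 1 HEK-293T library at 0. In MIR29B2CHG, allele 1 of the 150-base placement at position 207803738 was at 0.37 in PC-12 and -0.87 in HEK-293T, which differ by 1.245. Allele 1 of its 50-base placement was at 0.23 in Neuro-2a, against -1.13 in SH-SY5Y and -0.51 in PC-12, differences of 1.355 and 0.735. Allele 1 of the 150-base placement at position 230136877 in GALNT2 was at 0.82 in Neuro-2a and 0.19 in PC-12, against -0.53 in HEK-293T, differences of 1.342 and 0.715.

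The allelic effect of the 100-base placement at 150.52 Mb, near ECM1, was 0.70 in Neuro-2a and -0.62 in PC-12, a difference of 1.32. That of the 100-base placement at position 153950800 in CRTC2 was 0.62 in HEK-293T and -3.32 in Neuro-2a, a difference of 3.943 with 1 Neuro-2a library of allele 2 at 0. The 100-base minus 50-base difference of that allele 2 was 0.48 in HEK-293T and 1.43 in PC-12, against -2.87 in Neuro-2a, so the lines differed by 3.348 and 4.291. For allele 1 at position 163708219 this placement difference was 0.96 in Neuro-2a and -0.73 in PC-12, which differ by 1.69. For allele 1 at position 173677634 in ANKRD45 it was 2.10 in Neuro-2a and 1.40 in PC-12, against -2.38 in HEK-293T, so the lines differed by 4.476 and 3.78. The 150-base minus 100-base difference of that allele was 2.33 in HEK-293T and -0.28 in PC-12, which differ by 2.613. Neuro-2a and HEK-293T each had 1 library at 0 for it. In Neuro-2a replicate 2 the 100-base and the 50-base placement of this allele lay 7.27 and 9.84 below the 150-base one. Their own difference in that library, 2.56, therefore compares values at or near a count of 0, and its sign carries little information. For allele 2 at position 213974546 in PROX1-AS1 the 100-base minus 50-base difference was 1.86 in PC-12 and -0.53 in Neuro-2a, which differ by 2.392.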

How the results depend on the processing

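The 32 called chromosome 1 activities and the 3 called placement differences kept their direction under every setting run. Under the settings that leave no library out, 26 of the 32 and 1 of the 3 kept the call. None of them (0) kept it in every setting, since the calls ended without any 1 of the input libraries. The cause of the differences below was not tested. Activity calls in HEK-293T, Neuro-2a, SH-SY5Y and PC-12 were 3, 5, 15 and 9 with edgeR, and 26, 22, 29 and 42 with DESeq2, which called 23.6%, 27.9%, 30.9% and 40.3% of all alleles. With limma-voom they were 8, 9 and 14 in HEK-293T, Neuro-2a and PC-12, against 4.04%, 7.61% and 13.7% of all alleles. With the alleles at 0 in any RNA library left out they were 10, 9 and 16 there, against 7.20%, 12.3% and 16.2%, and both settings were within 1.5 times in SH-SY5Y. Leaving out 1 library at a time, they ranged between 0 and 33 for HEK-293T, 0 and 34 for Neuro-2a, 0 and 55 for SH-SY5Y, and 0 and 79 for PC-12, lowest without an input library and highest without RNA replicate 1. Leaving out an RNA library of PC-12 leaves 1, which is assumed to vary like the input. Allelic calls were 0 in every line with edgeR over all libraries and 1, 4, 4 and 9 with DESeq2 in the order given first. With 1 library left out they ranged between 0 and 10, 0 and 8, 0 and 19, and 0 and 37. Placement calls in that order were 0, 0, 2 and 1 with edgeR, 16, 12, 26 and 38 with DESeq2, 2, 2, 4 and 4 with limma-voom, and 1, 1, 4 and 9 with the alleles at 0 left out. Over all pairs limma-voom called 1.52%, 3.86%, 6.37% and 6.45%, and the fit without the alleles at 0 called 1.99%, 4.22%, 6.67% and 9.23%. They ranged between 0 and 19, 0 and 20, 0 and 38, and 0 and 69 with 1 library left out. Minimum counts of 50 or none and the size factors of DESeq2 in edgeR kept every count within 1.5 times. Chromosome 1 calls between lines were 0 under all settings, the replicate block included. RNA libraries with the same number share only a number in the labels, so the block is no pairing by design.

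The values that changed direction were of the SNPs near ECM1 and NUF2, and none of them had passed the threshold. At 150.52 Mb, the activity of allele 1 in the 100-base placement in Neuro-2a, 0.01 with edgeR, was -0.0055 with DESeq2 and with its size factors and -0.028 with the alleles at 0 left out. It ran between -0.073 and 0.11 with 1 library left out. Allele 2 there ran between -0.24 and 0.12 for HEK-293T, -0.0090 and 0.27 for SH-SY5Y, and -0.31 and 0.36 for PC-12. Allele 1 of the 50-base placement ran between -0.94 and 0.17 in HEK-293T and between -10.87 and 0.21 in PC-12. The allelic effects of this SNP ran between -0.17 and 0.16 for the 100-base placement in SH-SY5Y. For the 50-base placement they ran between -0.13 and 4.33 in HEK-293T and between -0.40 and 0.14 in SH-SY5Y. At 163.79 Mb in the 50-base placement, allele 1 in HEK-293T was -0.054 with limma-voom and ran between -0.38 and 0.28. The allelic effect there ran between -0.64 and 0.43 in Neuro-2a and between -0.56 and 0.50 in SH-SY5Y, and was 0.28 with limma-voom in SH-SY5Y.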
